A study of Sus scrofa with 6 samples.

Results

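A total of 950 transcripts of pig skeletal muscle formed the isolated, mid-length, unspliced intergenic class described here, out of 4046 long non-coding RNAs (lncRNAs) in the deposited table, of which 3310 are intergenic. A transcript belonged to the class when the table gave it the intergenic class code u and 1 exon, when it was over 400 and up to 5000 bp long, when its gene ID occurred once in the table, and when no other intergenic transcript of the table lay within 10000 bp on its chromosome. The rule used positions and structure only, and no expression value. "Isolated" therefore refers to other intergenic transcripts of the table, and 20 members (2.11%) still had a transcript of another class within 10000 bp.

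The RNA came from female Qingyu pigs (spelled Qinyu Pig in the sample labels) at 178 days of age, the point of fastest growth. There was no experimental treatment, but the methods state that feed, though not water, was withheld before slaughter. The longissimus dorsi muscle (LDM) represented glycolytic muscle and the psoas major muscle (PMM) oxidative muscle, with 3 libraries from each. The methods call the 3 samples of a muscle biological replicates, but which pig gave which library is not stated in the sources used here. The libraries were made from total RNA after removal of ribosomal RNA. Each was summarised as FPKM, the fragments scaled to transcript length and library size, and as coverage, the mean number of reads over each base.

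LncRNAs are transcripts of low coding potential, and intergenic ones lie outside annotated genes. Known members of this group act at their own locus or away from it, for example by guiding chromatin proteins or binding other RNAs, while for many others only transcription has been seen. Unspliced transcripts with 1 exon lack the splice junctions that fix strand and ends, so their limits rest on where reads begin and end along the genome. Glycolytic muscle relies on fast fibres that burn glycogen in short bursts, and oxidative muscle on slow fibres rich in mitochondria. None of the members carries a gene name, and no function is assigned to any of them here.

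The members were 402 to 4931 bp long, with a median of 1184 bp and quartiles of 706.8 and 2156 bp. The nearest other intergenic transcript lay at a median of 119200 bp. The table gave 505 members on the minus strand and 445 on the plus strand. Chromosome 1 held 126 members, chromosome 13 held 79 and chromosome 6 held 78, while chromosome 11 held the fewest, with 24. The members took between 20.4% (chromosome 10) and 34.4% (chromosome 12) of the intergenic transcripts of a chromosome. The scores of coding potential ran from -1.47 to -1.0 for CPC and from -0.586 to -0.0004 for CNCI, a range that the authors' own filter on low coding potential had set. Positions are given as in the authors' table, whose genome build could not be matched to the gene annotation of Sscrofa11.1.

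The limits of the rule fell among transcripts of the same kind of values. The shortest member, MSTRG.8139.1 (402 bp, chr16:48017205-48017606), had 0.376, 1.34 and 0 FPKM in LDM replicates 1 to 3 and 0.442, 0.546 and 0 FPKM in PMM replicates 1 to 3. The longest, MSTRG.13787.1 (4931 bp, chr5:11144491-11149421), was listed in 3 libraries, with its highest value of 1.68 FPKM in LDM replicate 2. The member with the closest intergenic neighbour, MSTRG.13795.1 (chr5:11273026-11276488, 10005 bp away), was above 0 FPKM in all 6 libraries at 0.0838 to 1.35 FPKM. Just outside the rule, MSTRG.14319.1 (399 bp) was listed in PMM replicate 1 alone at 1.28 FPKM. MSTRG.19798.1 (5021 bp) reached 1.92 FPKM in LDM replicate 1, and MSTRG.17749.1, with a neighbour at 9981 bp, reached 1.74 FPKM in LDM replicate 2. All 6 of these transcripts stayed below 2 FPKM in every library.

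The libraries were of similar size but not of similar content. The ratio of coverage to FPKM placed 7.24 to 8.78 gigabases of aligned sequence behind the values of a library. LDM replicate 2, with the smallest amount, listed the most transcripts of the whole table (2855 of 4046, 70.6%), and PMM replicate 3 the fewest (2107, 52.1%). LDM replicate 3, with the largest amount, had the lowest median coverage among listed transcripts (3.52 reads per base, against 7.06 to 10.6 in the others). Fibre marker genes could not be compared, because the table holds lncRNAs only. In tissue RNA, fewer cells of a type and less RNA per cell cannot be told apart.

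Among the 950 members, 560, 622 and 494 were listed above 0 FPKM in LDM replicates 1, 2 and 3, and 497, 510 and 426 in PMM replicates 1, 2 and 3. The mean was 559 ± 64 members per LDM library and 478 ± 45.2 per PMM library (SD over 3 libraries). The highest PMM library exceeded the lowest LDM library, so the muscles overlapped. The difference of 81 members had an exact permutation p of 0.3 (two-sided), where 3 against 3 libraries allow no p under 0.1. Within replicate numbers 1 to 3, LDM listed 63, 112 and 68 members more than PMM (exact sign-flip permutation p = 0.25, the smallest that 3 pairs allow). At a limit of 0.5 FPKM the difference was -2.67 members, with PMM the higher, and at a coverage of 9 or more it was 5.33 members. Listing in LDM replicate 2 alone occurred for 60 members, in PMM replicate 1 alone for 42 and in LDM replicate 1 alone for 40, but in LDM replicate 3 alone for only 3. Of the 4046 transcripts of the whole table, 252, 152, 126 and 18 were listed in these libraries alone, in the same order.

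The mean of log2(FPKM + 1) over the members was 0.57, 0.90 and 0.38 for LDM replicates 1 to 3, against 0.64, 0.67 and 0.50 for PMM. LDM thus held both the highest and the lowest library, at 0.62 ± 0.26 against 0.60 ± 0.09 in PMM (SD over 3 libraries, exact permutation p = 1.0). The difference of 0.02 turned to -0.12 without LDM replicate 2 and to -0.03 without PMM replicate 3. The members added up to 574 to 1242 FPKM in LDM and 772 to 993.5 FPKM in PMM. The 5 highest members carried 13.3% to 27.7% of the sum of a library.

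**Figure D1:**
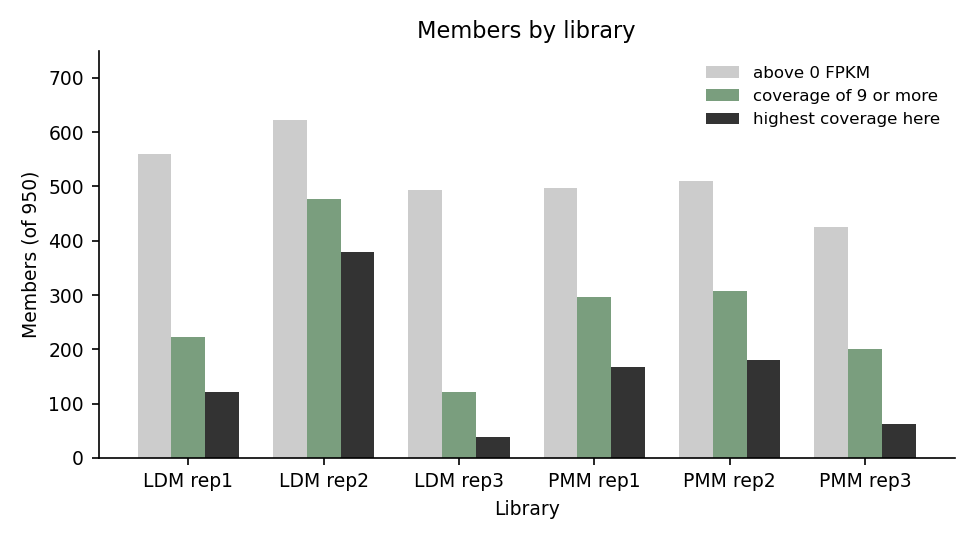
Number of members (vertical axis, of 950) in each of the 6 libraries (horizontal axis): listed above 0 FPKM (light bars), at a coverage of 9 reads per base or more (green bars) and with their highest coverage of all 6 libraries there (dark bars). The light bars range from 426 to 622, while the dark bars range from 38 in LDM replicate 3 to 380 in LDM replicate 2.

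Coverage showed a steep edge near 9 reads per base. Sorting the members by the highest coverage they reached in any library, 12 members lay between 8.5 and 9 reads per base, 93 between 9 and 9.5, and 148 between 9.5 and 10. In all, 897 of 950 members (94.4%) reached 9 reads per base in at least 1 library, and 53 in none. The same edge was present in the 1263 clustered transcripts, which meet the same rule but have an intergenic neighbour within 10000 bp (94.0% at 9 or more). The mark of 9 was chosen after the values were seen. The study's methods give a minimum number of reads but no minimum coverage, and the origin of the edge was not tested.

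**Figure D2:**
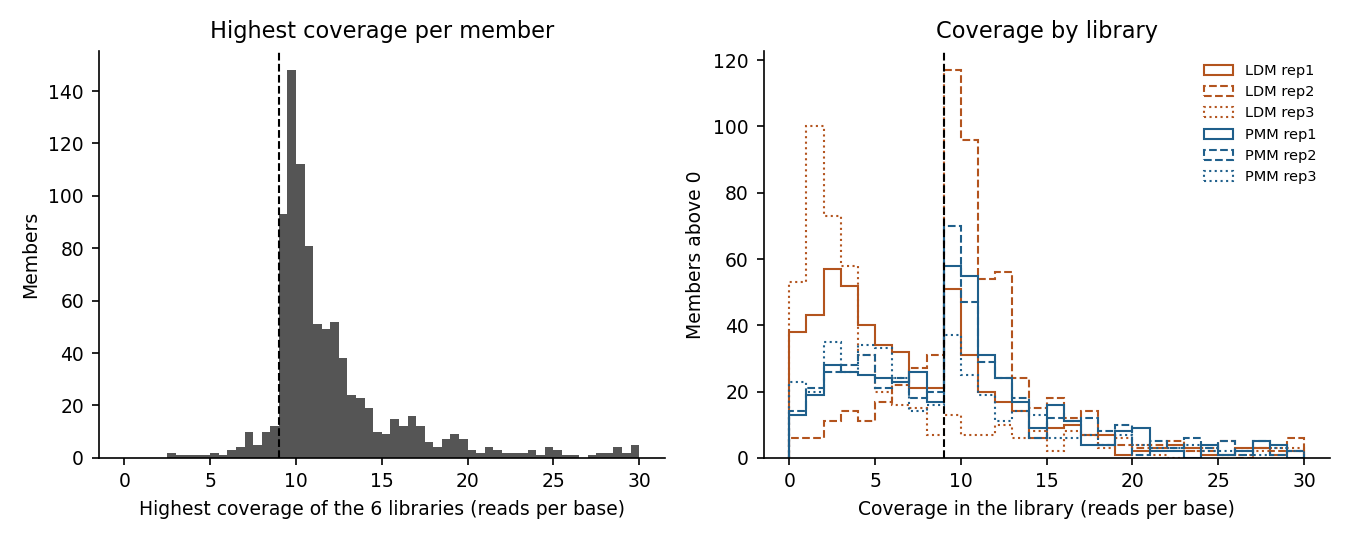
Left, number of members (vertical axis) by the highest coverage among the 6 libraries (horizontal axis, reads per base); right, number of members above 0 by their coverage in each library. The dashed line marks 9 reads per base, the axis ends at 30 and 53 members lie beyond it in the left panel; counts jump from 12 to 93 per bin at the line.

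Most members crossed that edge in a single library. A coverage of 9 or more was reached in exactly 1 library by 630 members (66.3%), in 2 by 92, in 3 by 39, in 4 by 40, in 5 by 43 and in all 6 by 53 (5.58%). The library in which a member had its highest coverage was LDM replicate 2 for 380 members (40.0%), PMM replicate 2 for 181, PMM replicate 1 for 168, LDM replicate 1 for 121, PMM replicate 3 for 62 and LDM replicate 3 for 38. For LDM replicate 2 this share was 41.5% in the whole table and 51.5% among the clustered transcripts, so it was not particular to the members. Sorting members by this library places it above the others by construction, so only the levels elsewhere are informative. The 380 members highest in LDM replicate 2 had a median coverage of 10.9 reads per base there, 0.336 in LDM replicate 1, 0.506 in LDM replicate 3 and 0 in each PMM library. The 38 members highest in LDM replicate 3 behaved otherwise, with medians of 9.11 to 12.5 reads per base in the other 5 libraries and 19.2 in LDM replicate 3 itself.

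Counting every value above 0, breadth was spread more evenly. Of the 950 members, 184 were listed in 1 library, 195 in 2, 165 in 3, 139 in 4, 118 in 5 and 149 in all 6 (15.7%, against 22.6% of the whole table). The median length rose from 913 bp for members listed once to 1545 bp for those listed in all 6, and the median of the highest coverage from 10.1 to 18.4 reads per base. The shortest members, of up to 600 bp, were listed in 3.06 libraries on average, those of over 600 and up to 1000 bp in 2.94 and those of over 3000 bp in 3.74. By distance, members with a neighbour within 20000 bp were listed in 3.01 libraries on average, those at over 500000 and up to 1000000 bp in 3.50 and those at over 1000000 bp in 3.16. These averages are descriptions over members that share the same 6 libraries.

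Each library also had members seen nowhere else. MSTRG.7472.1 (chr15:112625332-112627239) was listed at 4.37 FPKM in LDM replicate 1, with 34.7 reads per base, and at 0 in the other 5 libraries. MSTRG.9886.1 (chr2:43874941-43875488) reached 2.53 FPKM in LDM replicate 2 alone and MSTRG.5586.1 (chr13:208201068-208201617) 1.83 FPKM in LDM replicate 3 alone. MSTRG.15210.1 (chr6:50415506-50416874) reached 2.67 FPKM in PMM replicate 1 alone. The other 2 PMM libraries had MSTRG.496.1 (chr1:83847751-83848859) at 2.41 FPKM in replicate 2 and MSTRG.11204.1 (chr3:9868982-9869499) at 2.06 FPKM in replicate 3. These were the highest such members of their libraries, so the other members listed once stayed at or below those values.

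The members were compared with the clustered transcripts in the share listed above 0 FPKM. That share listed was higher by 3.61, lower by 4.21 and lower by 0.02 percentage points in LDM replicates 1 to 3, and higher by 2.60, 6.33 and 0.03 points in PMM replicates 1 to 3. The mean difference was 1.39 ± 3.63 points (SD over 6 libraries), with the isolated members higher in 4 of 6 libraries and an exact sign-flip permutation p of 0.4375. With isolation set at a distance of over 5000 bp, the mean difference was -1.60 points, at over 20000 and 50000 bp it was 2.69 and 2.55, at a limit of 0.5 FPKM 3.81, and at a coverage of 9 or more 5.24 (exact permutation p = 0.094). None of these passed 0.05. Against the 504 short unspliced transcripts the members were listed more often in 5 of 6 libraries, by 4.18 ± 3.89 points (p = 0.0625, same exact permutation test). Against the 276 long ones they were listed less often in all 6, by 12.2 ± 2.17 points (exact permutation p = 0.03125, the smallest that 6 libraries allow). Length differed between those classes by the rule, and these tests cover the spread between libraries only. They took the 6 libraries as independent, although the replicate numbers were taken to pair them. As 3 pairs the libraries would allow no exact sign-flip permutation p under 0.25. A coverage of 9 or more in all 6 libraries was reached by 5.58% of the isolated and 1.98% of the clustered transcripts. It was reached by 3.57% of the short ones and 5.31% of the whole table, so the isolated share was close to that of the table. In exactly 1 library it was reached by 66.3% of the isolated, 71.3% of the clustered and 61.7% of all transcripts. These last shares were not tested.

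**Figure D3:**
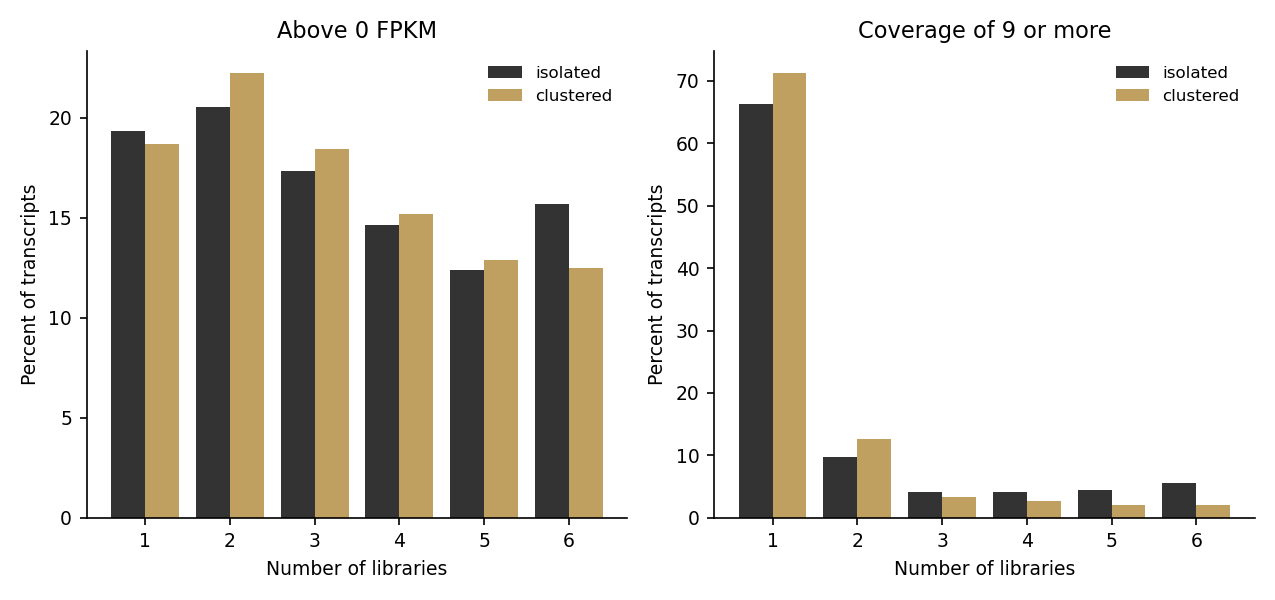
Percent of transcripts (vertical axis) by the number of libraries (horizontal axis) in which they were above 0 FPKM (left) or at a coverage of 9 reads per base or more (right), for the 950 isolated members (dark) and the 1263 clustered transcripts (light brown). Isolated members were above 0 in all 6 libraries in 15.7% of cases and clustered ones in 12.5%, against 22.6% of the whole table (not drawn). At 9 or more, 1 library is the most frequent number in both.

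Across the 950 members, the log2(FPKM + 1) of libraries of the same muscle correlated at 0.388 to 0.632 in LDM and 0.542 to 0.663 in PMM, and libraries of different muscles at 0.371 to 0.711 (Pearson, across transcripts that share libraries and are not independent). The ranges within and between muscles overlapped, and the highest value joined LDM replicate 3 and PMM replicate 3.

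Few members reached high levels. A mean of at least 1 FPKM in a muscle was reached by 230 members, at least 5 by 21 and at least 10 by 8. MSTRG.11294.1 (1259 bp, chr3:17127283-17128541) was the highest, at 46.3, 46.6 and 55.6 FPKM in LDM and 64.5, 59.3 and 74.2 FPKM in PMM. Every PMM library lay above every LDM library, while the difference (LDM minus PMM) was only -0.41 on the log2(FPKM + 1) scale (SE 0.32, limma adjusted p = 0.730). After scaling by medians of ratios the libraries overlapped and the difference was -0.14. MSTRG.9287.1 (1507 bp, chr18:46443573-46445079) stood next, at 31.0, 46.7 and 40.6 FPKM in LDM and 65.2, 70.5 and 56.2 FPKM in PMM. Its groups did not overlap either, and the difference of -0.70 (SE 0.32) had an unadjusted p of 0.043 and an adjusted p of 0.622. With that scaling LDM replicate 3 exceeded PMM replicate 3, and the difference was -0.44 (adjusted p = 0.722).

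MSTRG.3699.1 (516 bp, chr12:37657841-37658356) was nearly level, at 32.8, 35.0 and 29.9 FPKM in LDM and 33.3, 36.5 and 30.8 FPKM in PMM. Its coefficient of variation over the 6 libraries, 7.56%, was the smallest of the members with at least 1 FPKM in both muscles. MSTRG.7534.1 (2145 bp, chr15:117237575-117239719) had 13.4, 13.7 and 17.6 FPKM in LDM and 11.4, 16.1 and 15.3 FPKM in PMM, again with full overlap. MSTRG.13119.1 (chr4:95808031-95809517) was as even at a lower level, at 2.91 to 3.4 FPKM in LDM and 2.82 to 3.34 FPKM in PMM, with a coefficient of variation of 7.69%. MSTRG.1659.1, MSTRG.14875.1 and MSTRG.7591.1 followed in evenness, with coefficients of 9.80%, 10.4% and 11.8%. The sign of the small differences of MSTRG.3699.1, MSTRG.1659.1 and MSTRG.7591.1 changed with the scaling of the libraries, and that of MSTRG.7534.1 and MSTRG.13119.1 with the libraries used.

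The 53 members at 9 or more reads per base in all 6 libraries had means of 1.55 to 57.8 FPKM over all libraries, with a median of 3.17 FPKM. Their coefficients of variation ran from 7.56% to 61.8%, with a median of 22.9%. The means of the muscles lay within 1.5-fold of each other for 46 of them and over 2-fold apart for 1, MSTRG.6779.1. In 6 of the 53 (11.3%, against 6.98% of all transcripts at this coverage) every PMM library lay above every LDM library, and in 0 the reverse (against 3.26%). The count of 6 depended on the scaling of the libraries. After scaling by medians of ratios, MSTRG.11294.1 and MSTRG.9287.1, both among the 6, overlapped between the muscles, while MSTRG.6779.1 did not. Members with values of 0 or little coverage in any library were left out of this group by its definition.

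A value of 0 often stood beside high values of the same muscle. In 518 cases a member was listed at 0 in 1 library and above 0 in both others of the muscle. Taking the lower of those values, the gigabases of the library and a read length of 150 bases, at least 20 reads would have been expected in 325 cases and at least 100 reads in 87 cases, which concern 76 members. Such cases were not particular to the members. The matching counts were 2062, 1206 and 437 for the 4046 transcripts of the whole table, and 705, 451 and 115 for the 1263 clustered ones. MSTRG.595.1 (2391 bp, chr1:101651582-101653972) had the largest such gap, at 17.8, 21.9 and 10.7 FPKM in LDM and 0, 15.5 and 13.2 FPKM in PMM. Its 0 in PMM replicate 1 stands where 1594 reads would have been expected, and the log2 difference fell from 1.48 to 0.17 without that library. MSTRG.4246.1 (2799 bp, chr13:18869353-18872151) had 5.79, 6.69 and 0 FPKM in LDM and 5.76, 7.79 and 6.30 FPKM in PMM, with 949 reads expected at its 0 in LDM replicate 3. MSTRG.14531.1 (chr5:106658012-106660885) was listed at 0 in 1 library of each muscle and at 3.93 to 4.99 FPKM in the other 4. A 0 in the table was therefore read as a listing only, not as absence of the transcript, and what produced these values was not tested.

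The main comparison asked which members differed between glycolytic and oxidative muscle. It was made with limma on log2(FPKM + 1) over the whole table, restricted to the 1721 transcripts that every library of at least 1 muscle listed, of which 342 were members (36.0% of the 950). Of these, 149 were above 0 in all 6 libraries, 124 were complete in LDM only and 69 in PMM only. The filter thus bears on direction: of the 124 members complete in LDM only, 104 had the higher mean in LDM, and of the 69 complete in PMM only, 61 had it in PMM. The other 608 members were not tested. In total 186 of the 950 members were listed in LDM libraries alone, 105 in PMM libraries alone and 659 in both muscles. Of the 4046 transcripts of the whole table, 727 were listed in LDM alone, 385 in PMM alone and 2934 in both, so the table leaned the same way.

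No member passed an adjusted p of 0.05 (0 of 342, smallest adjusted p = 0.107 by limma), against 0.174% of all transcripts tested. At an unadjusted p under 0.05 there were 28 members, 14 higher in LDM (4.09%, against 3.14% of all tested) and 14 higher in PMM (4.09%, against 4.71%), and in total 8.19% against 7.84%. With the added requirement of an absolute log2 difference of at least 1, there were 5 members higher in LDM (1.46%, against 1.34%) and 8 higher in PMM (2.34%, against 2.44%). These shares lie close to those of the whole table. The median difference was -0.04 over the members tested and -0.01 over all transcripts tested. Scaling by medians of ratios moved the latter to 0.09 and the counts past both limits to 7 in LDM and 5 in PMM. The total of 13 was 21 without LDM replicate 2 (7 in LDM and 14 in PMM), 25 without LDM replicate 3 (18 and 7) and 23 without PMM replicate 3 (3 and 20), so which muscle held more depended on the libraries. Without LDM replicate 1 the count in LDM was 10. Shares over all transcripts are not given for these alternatives, so the counts and their changes say nothing particular about the members.

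The replicate numbers were taken to pair the libraries, and with the number as a block 13 members passed an adjusted p of 0.05. They were 5 higher in LDM (1.46%, against 1.1% of all tested) and 8 higher in PMM (2.34%, against 1.69%). Of these, 11 held at least 1 value of 0, and 2 held none, MSTRG.6779.1 and MSTRG.5007.1. In this fit limma replaced each transcript's own spread by the trend over all transcripts. The pairing itself was inferred from these same values. When only the 914 transcripts above 0 in all 6 libraries were fitted, 0 of 149 members passed without the block (against 0.109% of all, higher in PMM), with 2 members higher in LDM and 3 in PMM at an unadjusted p under 0.05 (0.875% and 4.92% of all). With the block 3 passed, 1 higher in LDM (0.671%, against 0.875% of all) and 2 higher in PMM (1.34%, against 2.52%). There too the spread came almost wholly from the trend over all transcripts. At an unadjusted p under 0.05 the block gave 2 members higher in LDM (against 2.63% of all) and 8 higher in PMM (against 9.19%).

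MSTRG.6779.1 (3994 bp, chr14:131943598-131947591) had the clearest difference among members without a 0. It was at 2.1, 3.54 and 1.54 FPKM in LDM and 8.54, 7.73 and 7.57 FPKM in PMM, with 13.5 to 64.8 reads per base in every library. All PMM values exceeded all LDM values by more than 2-fold. The log2 difference was -1.44 (SE 0.34, limma adjusted p = 0.108, and 5.5e-04 with the block). Over 15 alternatives the log2 difference ran from -1.81 to -1.24, with limma adjusted p-values of 2.3e-04 to 0.581. Since the muscles did not overlap, only the scaling of the libraries could have reversed the direction. With scaling by medians of ratios the difference was -1.24.

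MSTRG.5007.1 (2460 bp, chr13:98408232-98410691) was at 3.72, 11.5 and 10.5 FPKM in LDM and 9.43, 24.0 and 17.1 FPKM in PMM. The muscles overlapped, but within each replicate number the PMM library was the higher. The log2 difference was -0.94 (SE 0.41, adjusted p = 0.596, and 0.0499 with the block), and -0.49 without LDM replicate 1 (adjusted p = 0.660).

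MSTRG.11544.1 (1107 bp, chr3:39133904-39135010) had the smallest p of all members. LDM replicates 1 to 3 had 6.86, 4.91 and 7.34 FPKM, and PMM replicates 1 to 3 had 3.69, 0 and 0 FPKM. Every LDM library was above every PMM library, and the 1 PMM library that listed it held 28.0 reads per base. The log2 difference was 2.12 (SE 0.48, limma adjusted p = 0.107, 6.6e-08 with the block, and 0.0032 without PMM replicate 1). Over its 13 alternatives the adjusted p ran up to 0.582. The p-value with the block does not rest on the spread of this member's own values, and the member entered the fit through LDM only.

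A group of members was listed in all 3 libraries of one muscle and in none of the other, 22 in LDM (2.32% of the 950, against 1.51% of the whole table) and 3 in PMM (0.316%, against 0.346%). MSTRG.2625.1 (498 bp, chr10:70987452-70987949) was at 0 in every LDM library and at 1.74, 2.12 and 1.95 FPKM in PMM, where it had 13.2 to 16.0 reads per base (adjusted p = 0.108, and 0.0035 with the block). MSTRG.10812.1 (1436 bp, chr2:140218218-140219653) was at 0 in LDM and at 2.06, 1.44 and 1.16 FPKM in PMM. The reverse held for MSTRG.16069.1 (761 bp, chr6:135582866-135583626), at 1.89, 1.69 and 1.23 FPKM in LDM and 0 in PMM. Their adjusted p-values were 0.290 and 0.247, and 0.026 and 0.022 with the block. No fold is given for these members, since a muscle is listed at 0. The filter admitted them only through the muscle that listed them, so these p-values are no independent support for the direction. On chromosome 10 the intergenic neighbour of MSTRG.2625.1, at a distance of 44782 bp, is another member, MSTRG.2626.1 (chr10:70940925-70942669). It was higher in LDM on average, at 4.46, 0.178 and 2.02 FPKM against 0.638, 0.238 and 0.230 FPKM in PMM, with LDM replicate 2 below all PMM libraries (adjusted p = 0.622, and 0.039 with the block on transcripts above 0 in all 6 libraries).

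**Figure D4:**
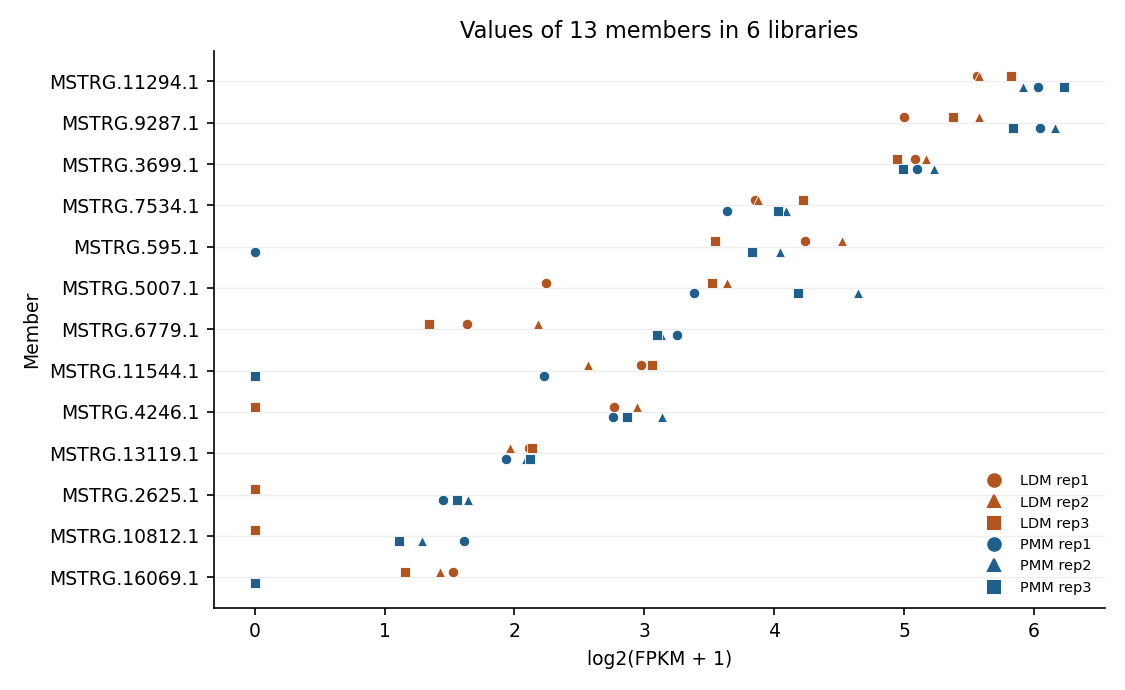
Level of 13 members (vertical axis) in the 6 libraries, as log2(FPKM + 1) (horizontal axis); LDM in orange above each line and PMM in blue below it, with circles, triangles and squares for replicates 1, 2 and 3. Symbols at 0 lie on top of each other; MSTRG.6779.1 separates the muscles without a 0, while MSTRG.595.1 and MSTRG.4246.1 each have 1 symbol at 0 far from the rest.

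Further members had non-overlapping muscles. The values of LDM exceeded those of PMM in 28 members (8.19% of those tested, against 5.87% of all tested), of which 22 were listed at 0 in every PMM library. PMM exceeded LDM in 27 members (7.89%, against 9.01%), of which 3 were listed at 0 in every LDM library. Among the 149 members above 0 in all 6 libraries the counts were 3 for LDM (2.01%, against 2.52% of all such transcripts) and 14 for PMM (9.40%, against 9.3%). After scaling by medians of ratios the counts among those tested were 39 for LDM (11.4%, against 8.66%) and 23 for PMM (6.73%, against 7.61%). Among those above 0 in all 6 libraries they were 9 for LDM (6.04%, against 5.25%) and 8 for PMM (5.37%, against 6.56%).

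Of those higher in LDM, MSTRG.2719.1 (545 bp, chr11:3045734-3046278) was above 0 everywhere, at 2.25, 0.991 and 2.0 FPKM in LDM and 0.508, 0.550 and 0.351 FPKM in PMM (adjusted p = 0.596). MSTRG.17074.1 (chr7:81235329-81238656) had 3.29, 0.865 and 0.846 FPKM in LDM and 0.386, 0.347 and 0 FPKM in PMM. MSTRG.8266.1 (chr16:72726877-72728270) had 1.16, 1.85 and 0.183 FPKM in LDM and 0 in PMM. A single LDM library thus stood well above or below the others in each of the latter members. MSTRG.365.1 (chr1:58870422-58871253) was similar, at 0.411 to 1.64 FPKM in LDM and listed in PMM replicate 2 alone, at 0.408 FPKM.

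Of those higher in PMM, MSTRG.13725.1 (1934 bp, chr5:6278807-6280740) was above 0 everywhere, at 0.634, 1.45 and 0.907 FPKM in LDM and 1.68, 2.15 and 1.66 FPKM in PMM (adjusted p = 0.704). MSTRG.15182.1 (chr6:50045512-50046150) had 0.679, 1.33 and 0 FPKM in LDM and 2.13, 1.84 and 1.91 FPKM in PMM. MSTRG.10579.1 (chr2:90401074-90403923) had 1.99, 2.01 and 0 FPKM in LDM and 2.29, 2.36 and 2.73 FPKM in PMM. In both, LDM replicate 3 alone was at 0, and MSTRG.10579.1 overlapped between the muscles after scaling by medians of ratios. MSTRG.2931.1, MSTRG.5080.1 and MSTRG.4078.1 had PMM means of 1.35, 1.08 and 1.15 FPKM and were listed at 0 in 2, 2 and 1 of the LDM libraries.

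**Figure D5:**
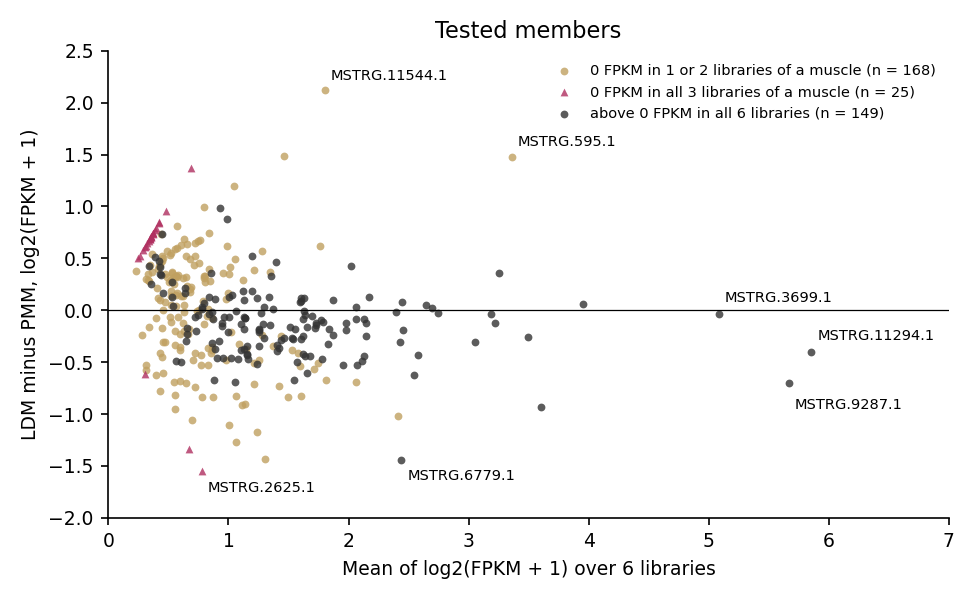
Difference between the muscles (vertical axis, LDM minus PMM on the log2(FPKM + 1) scale) against the mean level (horizontal axis) for the 342 members tested: above 0 in all 6 libraries (dark, n = 149), at 0 in 1 or 2 libraries of a muscle (light brown, n = 168) and at 0 in a whole muscle (triangles, n = 25). The members with the largest differences at low levels hold values of 0, and MSTRG.6779.1, at -1.44, lies farthest from the zero line among those without a 0.

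The balance of directions depended on the scaling of the libraries. Among the 149 members above 0 in all 6 libraries, the mean was higher in PMM for 97 (65.1%, against 58.2% of all such transcripts), but for 63 (42.3%, against 42.3%) after scaling by medians of ratios. It was higher in PMM for 116 members without LDM replicate 2 (77.9%, against 73.2%) and for 76 without LDM replicate 3 (51%, against 51.3%). The shares over all such transcripts thus moved in the same way. No direction for the class as a whole is therefore given.

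Members close to a transcript of another class were few, and the lncRNA near them in the table is named after the gene that hosts or overlaps it. These 20 members were chosen by position after the values were seen. MSTRG.14593.1 (625 bp, chr6:868549-869173) lay 526 bp from an antisense lncRNA of ssc-mir-4332, a microRNA gene, and was the highest of those named here, at 12.4, 7.02 and 10.7 FPKM in LDM and 7.42, 5.71 and 9.55 FPKM in PMM. The muscles overlapped (log2 difference 0.36, SE 0.34, adjusted p = 0.762). MSTRG.2444.1 (1310 bp, chr10:46545642-46546951) lay 1143 bp from an intronic lncRNA of ZEB1, a repressor of transcription, at 1.66, 2.42 and 3.19 FPKM in LDM and 2.20, 3.68 and 3.22 FPKM in PMM, again with overlap.

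MSTRG.15605.1 (3769 bp, chr6:77123315-77127083) lay 3237 bp from an intronic lncRNA of TRIM63, the muscle ubiquitin ligase MuRF1 that marks sarcomere proteins for breakdown. LDM replicates 1 to 3 had 1.19, 4.19 and 1.70 FPKM, and PMM replicates 1 to 3 had 1.53, 0 and 0 FPKM. The muscles overlapped through PMM replicate 1, and the log2 difference of 1.20 (SE 0.45) had an adjusted p of 0.527, and of 0.039 with the block. MSTRG.15605.1 entered the fit through LDM only. MSTRG.16044.1 (chr6:134090128-134091645) lay 885 bp from an antisense lncRNA of IL12RB2, a receptor subunit for interleukin 12, at 0 to 3.97 FPKM in LDM and 1.59 to 2.49 FPKM in PMM.

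Of 58 genes listed as markers of fibres, muscle and other cell types, 6 host a lncRNA of the table, and only JPH1 had a member within 50000 bp. JPH1 encodes junctophilin 1, which couples the surface and calcium store membranes in muscle. The member, MSTRG.12919.1 (908 bp, chr4:67427139-67428046), lay 8901 bp from an intronic lncRNA of JPH1 and was listed in LDM replicate 2 alone, at 1.85 FPKM. The nearest members to lncRNAs of PPP3CA, PDGFRB, SLN, KLF13 and NFATC2 lay 99477 bp or more away.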

How the data were processed

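Total RNA of 3 LDM and 3 PMM samples was depleted of ribosomal RNA and sequenced as paired reads from libraries in which the second cDNA strand was degraded. Per the labels and methods, the authors aligned reads with TopHat to the pig genome (Sscrofa11.1). The methods name Cufflinks for assembly, while transcript IDs start with MSTRG, and they describe removal of transcripts with 1 exon, although 3580 are in the table. Of 544 host gene names matched to a gene of Sscrofa11.1 in RefSeq, 542 lay on the same chromosome but only 2 overlapped it, so no coordinates were taken from that annotation, and no genome sequence was used. The deposited values were FPKM as the authors computed them, the authors' coverage per base (a signal not scaled between libraries), and the deposited CPC and CNCI scores.

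FPKM were tested as log2(FPKM + 1), a scale that understates changes at low levels, with limma 3.58.1 (R 4.3.3), an intensity trend, two-sided, over all 1721 tested transcripts, with Benjamini-Hochberg adjustment. Single values were compared by exact permutation tests with scipy 1.17.1 in Python 3.11.15 (with numpy 2.4.6 and pandas 2.3.3), and plots drawn with matplotlib 3.10.9. The limma script was tested on simulated data. Deviations of libraries with the same replicate number correlated at 0.239, 0.123 and 0.168, the other pairs at -0.179 to 0.0423, and all 3 exceeded 0.1, so numbers were taken to pair the libraries; the fit without the block was kept as the reported one, since the methods state no block.

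Members named were those past an adjusted p of 0.05 (none); up to 10 per muscle of the smallest p among non-overlapping ones with a mean of at least 1 FPKM; the 5 highest per muscle; the 5 most even; the highest of each library listed there alone; those at the limits of the rule; and those near listed genes. MSTRG.4246.1, MSTRG.14531.1, MSTRG.2626.1 and the neighbours of other lncRNAs were added after their values were seen. The members and lists were chosen with earlier results of these data known. Alternatives covered the pseudocount (0.1, 0.01), filters, scaling, distance, the block and leaving out each library.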

Additional observations from a re-analysis of the deposited data

How the results depend on the processing

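The count of members past an adjusted p of 0.05 (limma) was 0 as reported. It was 24 with a pseudocount of 0.01 (7.02%, against 4.53% of all tested) and 3 with no filter (0.316%, against 0.420%). It was 13 with the replicate block (3.80%, against 2.79%). On transcripts above 0 in all 6 libraries the block gave 3 (2.01%, against 3.39%). Leaving out a library gave 0 to 1. The 1 came without PMM replicate 1 (0.257%, against 0.260%) and without PMM replicate 2 (0.256%, against 0.260%). The count past an unadjusted p of 0.05 and a log2 difference of 1, 13 as reported, was 42 with a pseudocount of 0.1 or 0.01, 1 on transcripts above 0 in all 6 libraries with or without the block, and 17 to 25 when a library was left out. Its part higher in LDM, 5, was 28, 28, 0 and 0 in the same order and 3 to 18 when a library was left out. Its part higher in PMM, 8, was 14, 14, 1 and 1, then 5 with scaling by medians of ratios, and 7 to 20 when a library was left out. Shares over all transcripts are not given for these alternatives, so the counts say nothing particular about the members. The fits on transcripts above 0 in all 6 libraries, a listing rule at a coverage of 9, the pairing of listed counts and overlap after scaling were chosen after seeing the data. The difference in members listed, 81, was -2.67 at 0.5 FPKM or more, 5.33 at a coverage of at least 9, 121, 56.0 and 40.7 at distances of over 5000, 20000 and 50000 bp, 81 (p = 0.25, exact permutation test) with the replicate block, and 49.3 to 113 when a library was left out. The share against clustered transcripts, 1.39 points, was -1.60, 2.69 and 2.55 at distances of over 5000, 20000 and 50000 bp, 3.81 at 0.5 FPKM or more, 5.24 at a coverage of at least 9, and 0.40 to 2.51 when a library was left out. The difference in mean log2(FPKM + 1), 0.02, was 0.06 with scaling and 0.13 with a pseudocount of 0.1, and ran from -0.12 to 0.14 when a library was left out.

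Small differences changed sign for 7 named members. With scaling by medians of ratios MSTRG.1659.1 was at 0.12, MSTRG.3699.1 at 0.22 and MSTRG.7591.1 at 0.085. MSTRG.13795.1 was at -0.21 and -0.42 with pseudocounts of 0.1 and 0.01. Leaving out a library gave -0.29 (LDM replicate 2) to 0.27 for MSTRG.13795.1, with -0.0077 without PMM replicate 3. It gave -0.26 (LDM replicate 2) to 0.38 for MSTRG.3285.1, with -0.011 without PMM replicate 2. It gave -0.099 to 0.022 (PMM replicate 2) for MSTRG.3699.1, with 0.019 without LDM replicate 3. It gave -0.079 (PMM replicate 1) to 0.15 for MSTRG.7534.1, with -0.057 without LDM replicate 3, and -0.029 (PMM replicate 1) to 0.079 for MSTRG.13119.1, with -0.0068 without LDM replicate 3. The cause was not tested.

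Depth limits these values: the median listed member rested on 33.0 to 95.4 reads of 150 bases in a library. With 3 libraries per muscle, the exact permutation p-values rest on the spread between these samples. The limma p-values also rest on a spread pooled over transcripts. With no filter, and with the block on all tested transcripts, they rest on that pooled spread alone. With the block on transcripts above 0 in all 6 libraries they rest on it almost wholly (199.3 prior degrees of freedom in limma). The libraries kept strand, but alignment used default settings, and whether the values used strand is not given in the sources used here.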
